A study of Mus musculus with 24 samples.

Results

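Type I interferon induction in microglia was followed through 10 genes: the ligand Ifnb1, the receptor chains Ifnar1 and Ifnar2, the kinase Tbk1, and the interferon regulatory factors Irf1, Irf2, Irf3, Irf4, Irf5 and Irf8. They were listed by symbol and matched to the Ensembl identifiers of the count table through GENCODE names. All 10 were found among 54838 identifiers, and all 10 passed the filter on low counts that left 13116 genes for testing. Ifnb1 passed it through the LPS libraries alone.

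Poly-A RNA was sequenced from SIM-A9 cells, a mouse microglial line, in 24 libraries that form 8 groups of 3. Every group, the controls included, sat in 270 uL of medium without serum for 2 h before the start. A further 30 uL then brought in the treatment for another 2 h, and the final concentrations are not given in the sources used here. The groups were Control, LPS (bacterial lipopolysaccharide), (GT)6 SWCNT and COOH SWCNT (single-walled carbon nanotubes, the first named for a DNA repeat and the second for carboxyl groups), AAV (adeno-associated virus), the calcium dye Fura-2, and 2 further dyes labelled DiBASC2 and Di-2-ANEPEQ. The name DiBASC2 follows the sample titles, and other labels spell it and Di-2-ANEPEQ differently.

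Library totals ranged from 17364272 to 29259221 counts. The cell type label was checked with marker genes. All 13 microglia and macrophage markers averaged at least 1 CPM (counts-per-million scale, after TMM scaling of library sizes), with a summed level of 2510 to 2770 CPM over the 24 libraries. Of 5 astrocyte and 5 neuron markers, 0 reached that level, and Syt1 had no counts. Among 4 oligodendrocyte markers Mbp did and Mog had no counts, and among 7 lymphocyte and plasmacytoid dendritic cell markers Bst2 and Tcf4 did. The labels do not say that libraries of a group came from separate cultures, so p-values measure only the spread between these samples. Index numbers ran in consecutive blocks of 3 per group, so library order and treatment cannot be told apart.

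Type I interferons are secreted when a cell senses microbial products. Bacterial lipopolysaccharide signals through Tlr4 and its adaptor Ticam1 to the kinases Tbk1 and Ikbke, which phosphorylate Irf3, and Irf3 then switches on Ifnb1 together with NF-kappaB. Secreted interferon beta binds the receptor made of Ifnar1 and Ifnar2, and the receptor acts through Stat2 and Irf9 on interferon-stimulated genes. Other interferon regulatory factors tune this programme or serve in the differentiation of myeloid and lymphoid cells.

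All 10 are protein-coding genes of the GENCODE annotation (build GRCm38, strand in brackets). The ligand Ifnb1 at chr4:88522025-88522774 (-) and the kinase Tbk1 at chr10:121546455-121586787 (-) lie on the minus strand. The receptor genes lie near each other on chromosome 16, with Ifnar2 at chr16:91372783-91405589 (+) and Ifnar1 at chr16:91485238-91507441 (+). The regulatory factors are Irf1 at chr11:53770014-53778374 (+), Irf2 at chr8:46739732-46847458 (+), Irf3 at chr7:44997648-45002848 (+), Irf4 at chr13:30749226-30766976 (+), Irf5 at chr6:29526625-29541871 (+) and Irf8 at chr8:120736358-120756694 (+).

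The promoters of 5 of the genes are shown because the changes described here centre on them: Ifnb1 and Irf1 in LPS, Irf2 in LPS and (GT)6 SWCNT, and Irf4 and Irf8 in both nanotube groups. Each line holds the 250 bases before the RefSeq transcription start (build GRCm38.p6), read 5′ to 3′ on the gene's strand, with motif matches in capitals.
Ifnb1, chr4:88522795-88523044 (- strand): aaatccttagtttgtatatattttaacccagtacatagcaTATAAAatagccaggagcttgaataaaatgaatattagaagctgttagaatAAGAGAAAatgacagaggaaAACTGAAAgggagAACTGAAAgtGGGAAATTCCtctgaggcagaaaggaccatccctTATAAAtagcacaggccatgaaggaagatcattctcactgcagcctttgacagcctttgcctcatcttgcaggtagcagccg
Irf1, chr11:53769764-53770013 (+ strand): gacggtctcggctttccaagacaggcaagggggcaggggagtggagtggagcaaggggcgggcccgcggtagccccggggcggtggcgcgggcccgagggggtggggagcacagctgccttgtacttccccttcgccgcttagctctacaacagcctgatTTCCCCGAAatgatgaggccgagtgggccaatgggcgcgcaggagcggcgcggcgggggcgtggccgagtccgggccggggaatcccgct
Irf2, chr8:46739495-46739744 (+ strand): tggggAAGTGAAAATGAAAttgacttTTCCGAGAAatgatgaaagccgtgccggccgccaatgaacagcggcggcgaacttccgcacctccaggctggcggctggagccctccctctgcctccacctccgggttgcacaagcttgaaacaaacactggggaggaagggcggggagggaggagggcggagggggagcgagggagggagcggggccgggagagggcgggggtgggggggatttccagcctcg
Irf4, chr13:30748983-30749232 (+ strand): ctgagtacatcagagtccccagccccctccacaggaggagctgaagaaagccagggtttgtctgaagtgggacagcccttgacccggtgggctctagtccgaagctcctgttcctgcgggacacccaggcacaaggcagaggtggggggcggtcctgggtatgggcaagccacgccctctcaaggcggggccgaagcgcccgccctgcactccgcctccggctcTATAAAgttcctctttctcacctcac
Irf8, chr8:120736108-120736357 (+ strand): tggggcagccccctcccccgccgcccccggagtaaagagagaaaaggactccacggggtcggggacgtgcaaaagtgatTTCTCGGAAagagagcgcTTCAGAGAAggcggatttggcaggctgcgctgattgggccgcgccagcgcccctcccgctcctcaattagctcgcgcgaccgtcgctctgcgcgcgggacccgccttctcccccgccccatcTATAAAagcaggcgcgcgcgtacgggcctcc

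Motifs were searched on both strands: an IRF element (GAAA, any 2 bases, GAAA), an IRF half-element (AANNGAAA, added after the sequences had been seen), a kappaB core (GGGA, any 2 bases, TTCC), a gamma-activated site (TTCNNNGAA), an AP-1 site (TGANTCA) and a TATA box (TATAAA). The half-element can overlap the full element, as it does in Irf2. The Ifnb1 window held a kappaB match at −116 to −107 from the start, with 3 half-elements just before it whose first bases were at −159, −139 and −126. It also held TATA matches at −210 and −82. Of the 32851 windows of this length in the RefSeq table, 1.21% held a kappaB core and 21.3% a half-element.

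The Irf1 window had 1 gamma-activated site at −90 to −82. Irf8 had 2 of them, starting at −171 and −153, with a TATA box at −31. Irf2 had an IRF element at −241 to −232 and a gamma-activated site at −224, and the Irf4 window had only a TATA box, at −26. A gamma-activated site occurred in 7.02% of all windows, an IRF element in 2.98% and a TATA box in 12.4%. All 10 genes had an entry, with 12 windows in all, since Irf1 and Irf8 have another start each. No AP-1 site matched in any of the 12 windows, against 6.75% of all windows. Outside the 5 promoters shown, the only match was a gamma-activated site in Ifnar2. A match describes the letters of a window and is not evidence of a bound site.

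**Figure D1:**
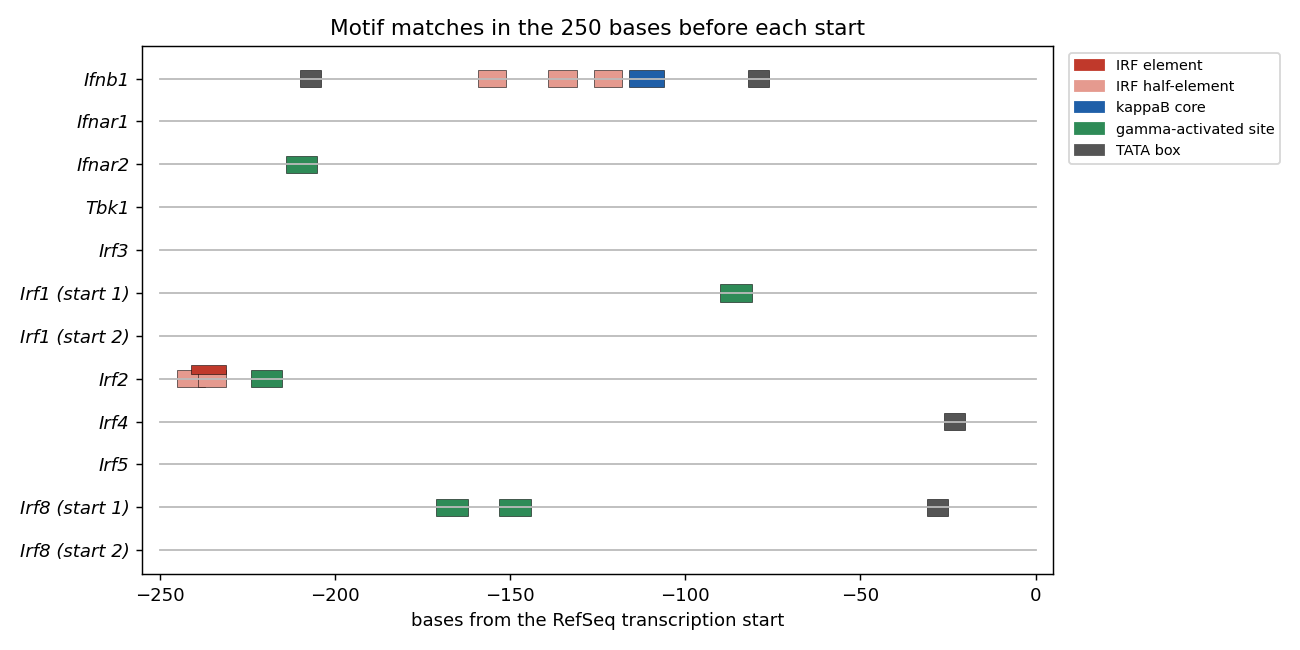
Positions of motif matches (boxes, coloured by motif) in the 250 bases before each RefSeq start of the 10 genes, with bases from the start on the x axis. Ifnb1 holds 3 IRF half-elements next to its kappaB match, and Ifnar1, Tbk1, Irf3 and Irf5 hold no match.

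Levels of different genes were compared as CPM per kilobase of merged exons. In untreated cells Irf5, a factor used by Toll-like receptors to drive inflammatory cytokines, stood highest at 40.4 ± 1.05 CPM per kb (SD, n = 3). Ifnar1 followed at 15.5 ± 0.396, Tbk1 at 10.9 ± 0.207 and Irf3 at 9.67 ± 0.258 CPM per kb. Ifnar2 was at 9.02 ± 0.382, Irf8 at 8.38 ± 0.436 and Irf1 at 7.73 ± 0.480 CPM per kb, and only Ifnar2 and Irf8 overlapped between libraries. Irf2 at 3.87 ± 0.226 and Irf4 at 1.54 ± 0.0663 CPM per kb were lower. Ifnb1 stood at the bottom, at 0.0237 CPM per kb from a single count in 1 of the 3 control libraries.

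**Figure D2:**
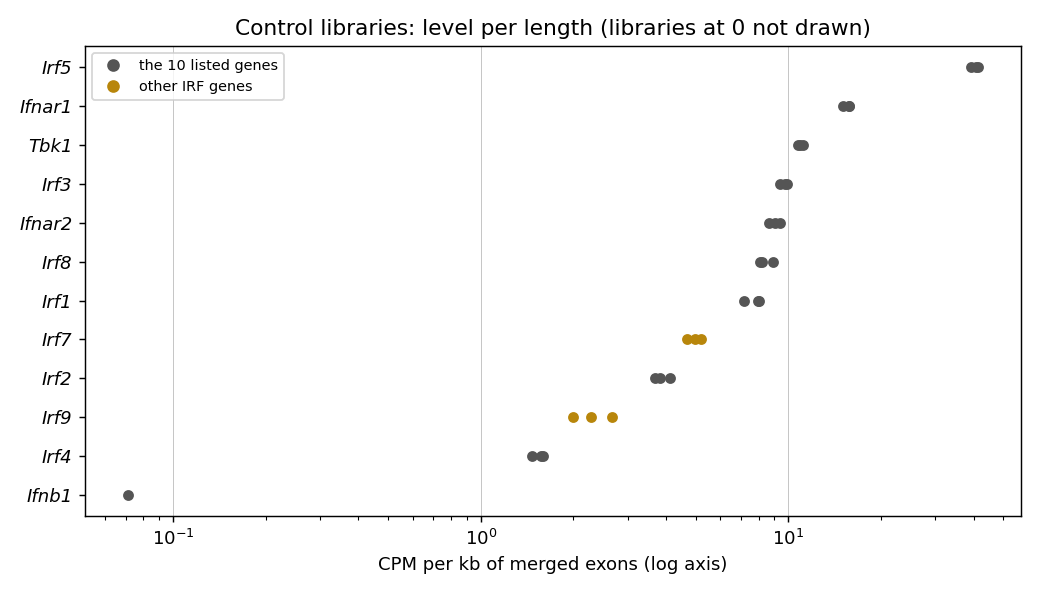
Level of each IRF-related gene in the 3 control libraries, as CPM per kilobase of merged exons on a log axis, with 1 point per library above 0. Irf5 averaged 40.4 CPM per kb and Irf4 1.54, and Ifnb1 appears with 1 point because the other control libraries held no count.

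Ifnb1 was counted in all 3 LPS libraries and almost nowhere else. The LPS libraries held 10, 9 and 14 counts, which is 0.543, 0.440 and 0.655 CPM. Outside LPS, 7 of 21 libraries held any count, 11 counts together. The highest was (GT)6 SWCNT replicate 3 with 3 counts, so the LPS libraries did not overlap those of any other group.

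Summed over libraries, LPS had 33 Ifnb1 counts, or 0.548 CPM of the TMM-scaled total, with an exact Poisson 95% interval of 0.377 to 0.769 that covers counting error only. Control had 1 count, which gives a ratio of 33.1 with a counting interval of 5.54 to 1350. (GT)6 SWCNT had 4 counts, and LPS was 8.85 times higher, with an interval of 3.15 to 34.4. COOH SWCNT and Fura-2 had 0 counts, and the LPS level was 13 and 12.9 times a floor of 3 counts over each group. These ratios leave out the counting error of LPS and are not lower limits like those of the intervals above. AAV had 3 counts, DiBASC2 2 and Di-2-ANEPEQ 1, so an order among the groups other than LPS cannot be read at this depth. In bulk RNA, more cells with Ifnb1 and more Ifnb1 RNA per cell cannot be told apart. edgeR's quasi-likelihood test gave an adjusted p of 0.000209 for LPS against Control. Because Ifnb1 entered the test only through its level in LPS (each LPS library was above the cutoff of 0.416 CPM), it had to differ there.

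No other interferon ligand was seen. The list held 20 genes, among them the interferon alpha genes, Ifng and the lambda genes Ifnl2 and Ifnl3, and each had 0 counts in all 24 libraries. Over all 24 libraries a floor of 3 counts allows up to 0.0053 CPM of the unscaled total, and 0.0477 CPM within the LPS libraries. The interferon alpha genes are near-identical copies, and how reads matching several of them were counted is not given in the sources used here, so their 0 is uncertain.

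Of the receptor chains, Ifnar2 was called higher in LPS and both were called lower in (GT)6 SWCNT. Ifnar1, the chain that recruits Tyk2, was at 89.2, 93.2 and 93.3 CPM in Control and at 77.6, 79.5 and 85.0 CPM in (GT)6 SWCNT. All 3 (GT)6 SWCNT libraries were below all controls. The change was −0.19 ± 0.04 on the log2 scale (SE, adjusted p 0.00153). In LPS Ifnar1 was at 99.3 ± 3.06 CPM (SD, n = 3), 0.11 above Control on the log2 scale, at an adjusted p of 0.0574. That p moved under the threshold with DESeq2 size factors (0.0339), a mean of at least 50 counts (0.0371), the DESeq2 test (0.0418) and without LPS replicate 2 (0.0368).

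Ifnar2, the chain that binds interferon with the higher affinity, was at 31.2, 28.7 and 30.2 CPM in Control and at 39.99, 36.7 and 36.3 CPM in LPS. The LPS libraries were above every other library in the series, with a log2 fold change of 0.33 ± 0.06 against Control (adjusted p 3.05e-05). In (GT)6 SWCNT Ifnar2 was at 26.6 ± 0.591 CPM (SD, n = 3), −0.17 ± 0.06 on the log2 scale at an adjusted p of 0.0402. This call was lost in 10 of 13 alternatives, among them each of the 6 fits without 1 library, where the adjusted p ran from 0.0524 without Control replicate 2 to 0.236 without Control replicate 1. Ifnar2 shares 315 exon bases with Gm21970, which had no counts in LPS or Control.

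Tbk1, the kinase that phosphorylates Irf3, rose in LPS. It was at 43.6, 42.6 and 41.97 CPM in Control and at 52.8, 53.8 and 53.5 CPM in LPS, where it was above every other library. The log2 fold change was 0.32 ± 0.05 (adjusted p 3.32e-06). In (GT)6 SWCNT Tbk1 was at 49.7, 47.3 and 45.5 CPM, all above the controls, with a log2 fold change of 0.16 ± 0.05 (adjusted p 0.0246). This smaller change lost its call without Control replicate 3 (0.0527), without (GT)6 SWCNT replicate 1 (0.124) and without a low-count filter (0.0732). In COOH SWCNT Tbk1 was at 42.9 ± 0.645 CPM (SD, n = 3), and the 95% interval of its log2 difference from Control ran from −0.10 to 0.11.

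Irf3 is the constitutive factor that Tbk1 activates by phosphorylation. Of the 6 IRF genes it had the smallest spread between group means. They ran from 30.8 CPM in AAV to 36.4 CPM in LPS, a ratio of 1.18 between highest and lowest. Neighbouring groups in this order overlapped in every case. Irf3 was called in 0 of the 7 comparisons with Control. In LPS its log2 fold change was 0.13 ± 0.06 (adjusted p 0.0982), and it was called there only without LPS replicate 1 (adjusted p 0.0434). Irf3 shares 88 exon bases with Bcl2l12 on the other strand, which fell in LPS (−0.42, adjusted p 0.00955), and strand use in the counting is not given in the sources used here.

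Irf1, an activator that is itself induced by NF-kappaB and by interferon, changed most of the genes that were above the filter in every group. Control libraries were at 28.5, 31.96 and 31.7 CPM and LPS libraries at 131, 134 and 148 CPM. Each LPS library stood above every other library in the series, the highest of which was 37.0 CPM in (GT)6 SWCNT. Irf1 rose from 30.7 ± 1.91 to 137 ± 8.94 CPM (SD, n = 3), which is 2.16 ± 0.05 on the log2 scale (adjusted p 2.27e-28), or 4.47-fold. Across 13 alternatives it stayed between 2.11 and 2.20.

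In the nanotube groups Irf1 was only slightly above Control. (GT)6 SWCNT libraries were at 37.0, 34.9 and 32.3 CPM and COOH SWCNT libraries at 34.6, 33.7 and 35.4 CPM, all above the highest control of 31.96. The log2 fold changes were 0.18 ± 0.06 (adjusted p 0.0272) and 0.17 ± 0.06 (adjusted p 0.0387). Each call hung on single libraries. For (GT)6 SWCNT it was lost without Control replicate 1 (0.104), (GT)6 SWCNT replicate 1 (0.167) or (GT)6 SWCNT replicate 2 (0.058). For COOH SWCNT it was lost without Control replicate 1 (0.17), COOH SWCNT replicate 1 (0.0848) or COOH SWCNT replicate 3 (0.0767), and without a low-count filter (0.0727). Fura-2 libraries were also all above Control, at 33.9 ± 0.331 CPM, but not called (adjusted p 0.368). Irf1 shares 135 exon bases with Gm17334 on the other strand, whose mean was 0.0181 CPM in LPS.

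Irf2, known as a competitor of Irf1 at the same DNA element, moved the other way. It was at 28.3, 30.5 and 27.2 CPM in Control, at 21.6, 23.7 and 24.6 CPM in LPS and at 22.9, 24.6 and 23.6 CPM in (GT)6 SWCNT. The LPS and (GT)6 SWCNT libraries overlapped each other and lay below every library of the other 6 groups. Irf2 fell by 0.30 ± 0.07 on the log2 scale in LPS (adjusted p 9.16e-04) and by 0.28 ± 0.07 in (GT)6 SWCNT (adjusted p 0.00276), the latter not called without Control replicate 2 (0.0563). COOH SWCNT, at 30.3 ± 2.16 CPM (SD, n = 3), overlapped Control.

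Irf5 was at 118, 120.0 and 114 CPM in Control and at 142, 142 and 148 CPM in LPS, again above every other library. The log2 fold change was 0.30 ± 0.04 (adjusted p 1.77e-07). In (GT)6 SWCNT it was at 111 ± 4.83 CPM (SD, n = 3) and overlapped Control (−0.09, adjusted p 0.128). Irf5 shares 411 of its 2905 exon bases with Tnpo3 on the other strand, which was at 161 CPM in LPS and 160.2 CPM in Control.

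**Figure D3:**
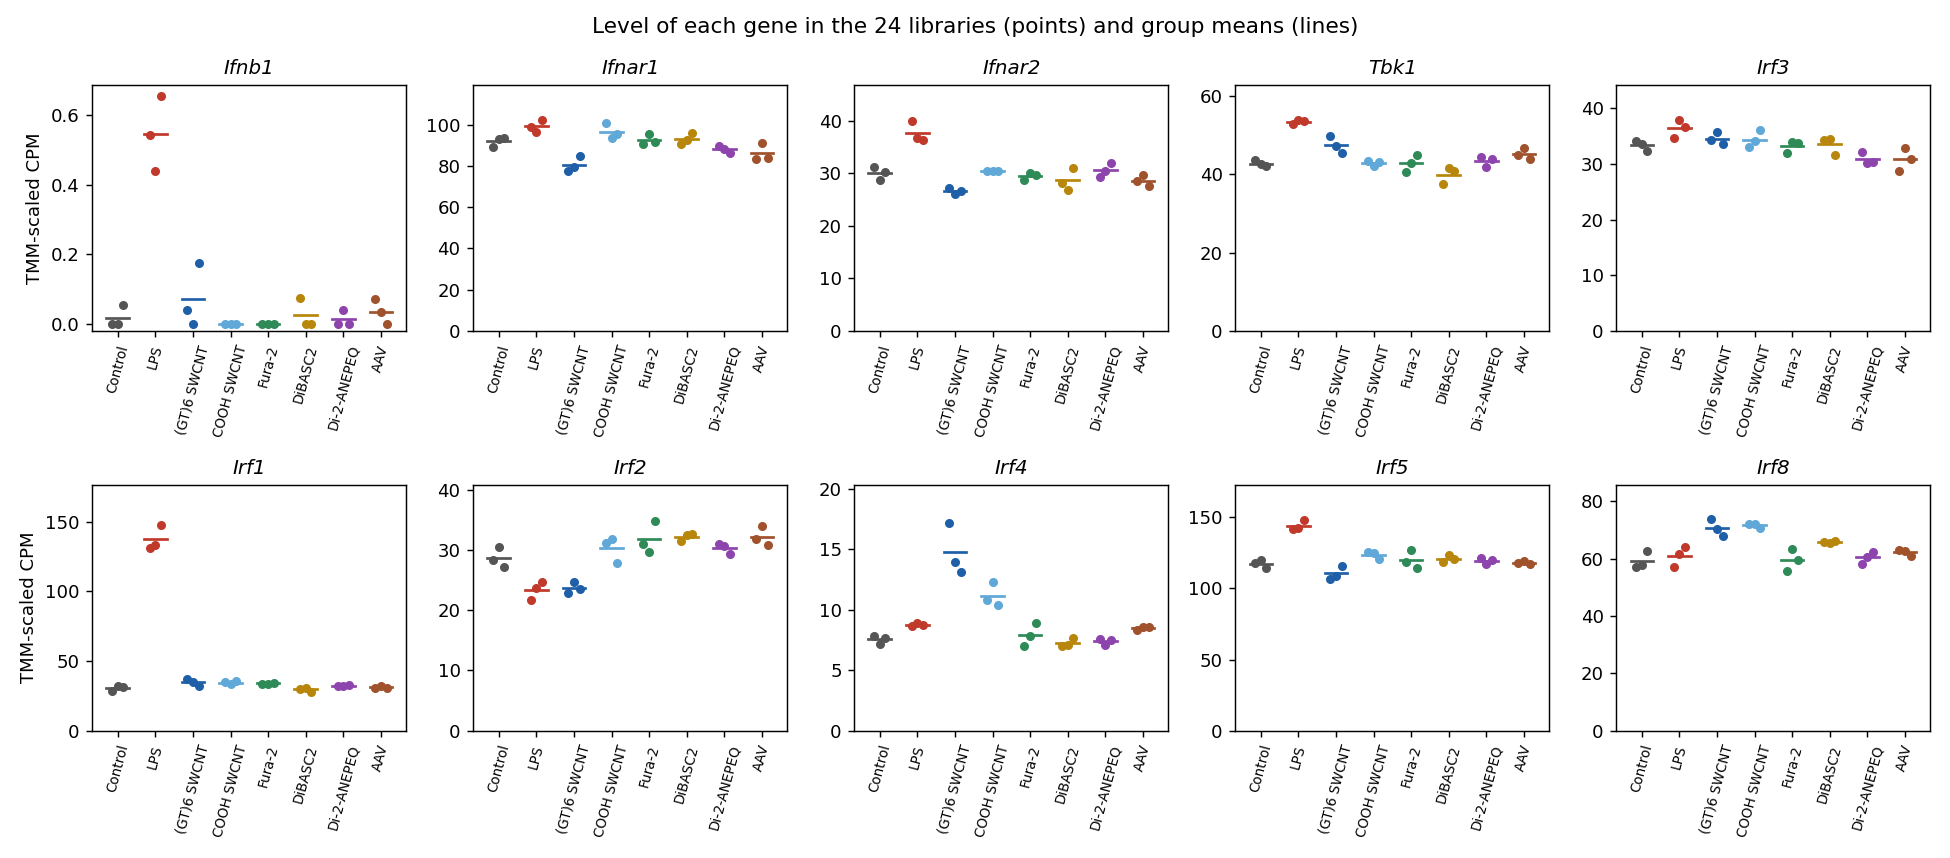
CPM of each gene (y axis, 1 panel per gene from 0) in the 8 groups, with a point per library and a line at the group mean. Irf1 averaged 137 CPM in LPS against 30.7 in Control, and Irf4 14.8 CPM in (GT)6 SWCNT and 11.1 in COOH SWCNT against 7.56 in Control.

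Irf4 and Irf8 changed with the nanotubes and were not called in LPS. Irf4, a factor of lymphocyte and alternatively activated macrophage programmes that can compete with Irf5 for the adaptor Myd88, was at 7.80, 7.19 and 7.69 CPM in Control. It was at 17.2, 14.0 and 13.1 CPM in (GT)6 SWCNT and at 10.8, 12.3 and 10.3 CPM in COOH SWCNT. LPS libraries were at 8.64, 8.89 and 8.74 CPM. No library of one of these 4 groups fell within the range of another.

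Irf4 rose by a log2 fold change of 0.98 ± 0.10 in (GT)6 SWCNT (adjusted p 8.63e-10), which is 1.97-fold, and by 0.56 ± 0.10 in COOH SWCNT (adjusted p 1.14e-04), or 1.47-fold. Both were called under each of 13 alternatives. In LPS the difference was 0.22 ± 0.11 (adjusted p 0.149), with a 95% interval from −0.01 to 0.44. The direct tests placed (GT)6 SWCNT above LPS by 0.76 ± 0.10 (adjusted p 1.03e-07) and above COOH SWCNT by 0.42 ± 0.09 (adjusted p 0.00105). COOH SWCNT was above LPS by 0.34 ± 0.10 (adjusted p 0.00692), a call lost without COOH SWCNT replicate 2 (0.0638). With 142 to 169 counts per control library, Irf4 is the most thinly counted of the genes after Ifnb1.

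Irf8, a factor required for the microglial lineage that pairs with Spi1, was at 57.0, 57.7 and 62.6 CPM in Control. It was at 73.7, 70.3 and 67.8 CPM in (GT)6 SWCNT and at 72.2, 72.0 and 70.7 CPM in COOH SWCNT, above every library of the other groups. The log2 fold changes were 0.26 ± 0.05 (adjusted p 1.11e-04) and 0.28 ± 0.05 (adjusted p 4.95e-05), both called under each of 13 alternatives. LPS, at 57.1, 61.7 and 64.1 CPM, overlapped Control, and both nanotube groups were above it in the direct tests, by 0.21 ± 0.05 (adjusted p 0.00114) and 0.23 ± 0.05 (adjusted p 2.19e-04).

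DiBASC2 came closest to a call among the dyes, also at Irf8. Its libraries, at 65.9, 65.3 and 66.0 CPM, were all above Control, with a log2 fold change of 0.15 ± 0.05 and an adjusted p of 0.0557. Irf8 passed the threshold there with upper-quartile factors (0.0177), a mean of at least 50 counts (0.0388) and without Control replicate 3 (0.0254).

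**Figure D4:**
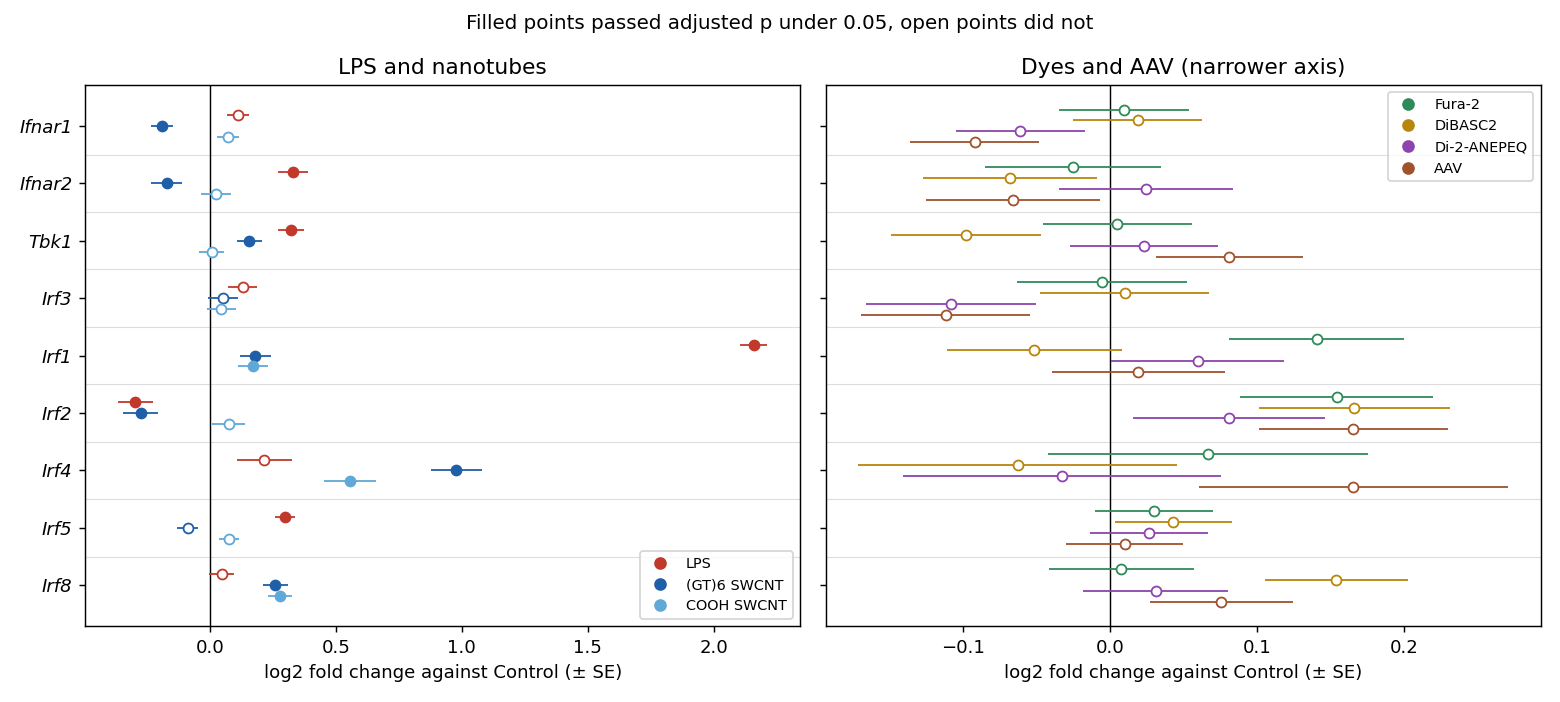
Log2 fold change against Control (x axis, ± SE) of the 9 genes other than Ifnb1, for LPS and nanotubes at left and for dyes and AAV at right on a narrower axis, with filled points where the adjusted p was under 0.05. Irf1 in LPS lies at 2.16, Irf4 in the nanotube groups at 0.98 and 0.56, and no point at right is filled.

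Over the 10 genes, 6 were called in LPS, 5 higher (Ifnb1, Irf1, Irf5, Ifnar2 and Tbk1) and 1 lower (Irf2), where 28.3% of all tested genes were called, 13.8% higher and 14.5% lower. Without Ifnb1, which had to differ, 4 of 9 were higher and 1 was lower, and the median log2 fold change was 0.22, against −0.01 for all genes. For (GT)6 SWCNT 7 were called, with 20.4% of all genes (9.90% higher, 10.5% lower). Irf1, Irf4, Irf8 and Tbk1 were higher and Irf2, Ifnar1 and Ifnar2 lower. Without (GT)6 SWCNT replicate 1 that count was 4, 2 higher and 2 lower. The medians were 0.10 for the 10 genes, 0.05 without Ifnb1 and −0.02 for all genes. COOH SWCNT had 3 called, all higher (Irf1, Irf4 and Irf8), with 20.0% of all genes (9.39% higher, 10.6% lower). There the median was 0.07 with or without Ifnb1, and −0.00156 for all genes. These comparisons share the same 3 control libraries, so a library that is off in Control moves all of them together.

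In the dye and AAV groups 0 of the 10 genes were called. For Fura-2 0.252% of all genes were called, for DiBASC2 5.47%, for Di-2-ANEPEQ 3.08% and for AAV 5.00%. DESeq2 also called 0 of the 10 in each. Unadjusted p-values were under 0.05 for 2 genes in Fura-2 (Irf1 and Irf2), 2 in DiBASC2 (Irf2 and Irf8), 0 in Di-2-ANEPEQ and 2 in AAV (Irf2 and Ifnar1). Of all 13116 genes, 1411 had such a p in Fura-2, 2451 in DiBASC2, 2161 in Di-2-ANEPEQ and 2720 in AAV. Nothing is read from these counts. For the 9 genes other than Ifnb1, the 95% intervals of the log2 difference from Control lay within −0.15 to 0.29 for Fura-2, −0.28 to 0.30 for DiBASC2, −0.25 to 0.21 for Di-2-ANEPEQ and −0.23 to 0.38 for AAV.

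Set directly against LPS, (GT)6 SWCNT differed in 8 of the 10 genes, where 21.6% of all genes were called, 9.63% higher and 11.9% lower. The genes were 2 higher (Irf4 and Irf8) and 6 lower (Ifnb1, Irf1, Irf5, Ifnar1, Ifnar2 and Tbk1). Ifnb1 entered the test only through LPS, so it had to be lower and its call adds nothing to this count. Irf1 was lower by a log2 difference of −1.98 ± 0.05 (adjusted p 3.72e-27) and Ifnar2 by −0.50 ± 0.06 (adjusted p 1.74e-08). Irf2, which fell in both groups against Control, differed by 0.02, with a 95% interval from −0.12 to 0.16. The Tbk1 difference of −0.17 ± 0.05 (adjusted p 0.0137) lost its call without (GT)6 SWCNT replicate 2 (0.0504), (GT)6 SWCNT replicate 3 (0.0785) or LPS replicate 2 (0.0528), and without a low-count filter (0.0603).

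COOH SWCNT against LPS also gave 8 called genes, where 37.8% of all genes were called, 18.1% higher and 19.7% lower. Irf2, Irf4 and Irf8 were higher in COOH SWCNT, and Ifnb1, Irf1, Irf5, Ifnar2 and Tbk1 were lower. Here too Ifnb1 had to be lower, so its call adds nothing to the count. Irf1 again differed most of the genes above the filter in every group, by −1.99 ± 0.05 (adjusted p 1.93e-27).

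The nanotube groups differed from each other in 6 of the 10 genes, where 21.4% of all genes were called, 11.9% higher and 9.48% lower. Irf4 was higher in (GT)6 SWCNT, as given, and so was Tbk1 (0.15 ± 0.05, adjusted p 0.0283). Irf2 (−0.35 ± 0.07, adjusted p 1.94e-04), Ifnar1 (−0.26 ± 0.04, adjusted p 3.24e-05), Irf5 (−0.16 ± 0.04, adjusted p 0.00264) and Ifnar2 (−0.20 ± 0.06, adjusted p 0.0164) were lower there. The Tbk1 call was lost without COOH SWCNT replicate 2 (0.0506) or (GT)6 SWCNT replicate 1 (0.151) or 2 (0.0534), with upper-quartile factors (0.059) and without a low-count filter (0.0832). The Ifnar2 call was lost without COOH SWCNT replicate 1 (0.0571) or 2 (0.0546) or (GT)6 SWCNT replicate 2 (0.0771). For Irf8 the 95% interval of the difference was −0.12 to 0.08, for Irf1 −0.11 to 0.13 and for Irf3 −0.11 to 0.12.

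A further list held the remaining IRF genes tested, Irf7 and Irf9, with Irf2bp1, Irf2bp2 and Irf2bpl, which encode proteins that bind Irf2 or resemble such proteins and are not IRF family members. Of these 5 genes, 2 were called in LPS, both lower and both Irf2bp genes. For (GT)6 SWCNT 4 were called and for COOH SWCNT 3, with Irf9 the only IRF gene among them in each. Irf2bp2, a corepressor that binds Irf2, was at 55.8, 58.3 and 57.0 CPM in Control and at 24.3, 21.7 and 20.3 CPM in LPS, a fall of 1.37 ± 0.06 on the log2 scale (adjusted p 7.83e-21). It was also lower in (GT)6 SWCNT (−0.63 ± 0.06, adjusted p 1.63e-11) and in COOH SWCNT (−0.23 ± 0.05, adjusted p 0.00148). Its relative Irf2bp1 fell in LPS (−0.32, adjusted p 8.54e-04) and (GT)6 SWCNT (−0.40, adjusted p 5.86e-05).

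The third relative, Irf2bpl, went the other way in the nanotube groups. It was at 45.2, 49.2 and 48.8 CPM in Control, 78.1, 80.7 and 76.5 CPM in (GT)6 SWCNT and 68.2, 65.8 and 63.4 CPM in COOH SWCNT, with no overlap between these groups. The log2 fold changes were 0.72 ± 0.05 (adjusted p 8.23e-15) and 0.46 ± 0.05 (adjusted p 2.47e-09), and LPS overlapped Control at 46.6 ± 0.181 CPM (SD, n = 3). In AAV it was called higher (0.17, adjusted p 0.029), but not without AAV replicate 2 (0.143), Control replicate 1 (0.135) or Control replicate 3 (0.0687).

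Irf9, the DNA-binding subunit of the complex that the receptor activates, was at 14.4, 12.3 and 10.7 CPM in Control. It was at 8.38, 7.87 and 9.73 CPM in (GT)6 SWCNT and at 6.68, 8.57 and 7.91 CPM in COOH SWCNT, below all controls. The log2 fold changes were −0.54 ± 0.14 (adjusted p 0.00539, and 0.0669 without Control replicate 1) and −0.70 ± 0.14 (adjusted p 4.05e-04). Irf7, the factor that amplifies interferon production in later rounds, was at 18.7 ± 0.975 CPM in Control and 19.6 ± 3.46 CPM in LPS (SD, n = 3) and was called in 0 of these 3 comparisons.

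Around the ligand, the 20 tested genes of Ifnb1 induction, from Toll-like receptors to the kinase complex, split in LPS into 9 higher and 4 lower. That is 65.0% of the list, against 28.3% of all genes called. With a log2 fold change of at least 1 were Ikbke (1.92 ± 0.06, adjusted p 9.28e-25), the kinase related to Tbk1, and Cd14 (1.51 ± 0.04, adjusted p 2.77e-26), the coreceptor for lipopolysaccharide. Peli1 (1.10 ± 0.05, adjusted p 4.1e-20), a ubiquitin ligase of these pathways, and Ticam1 (1.04 ± 0.08, adjusted p 1.55e-13) followed. Tlr4 was among the lower genes, averaging 41.7 CPM in Control and 22.8 CPM in LPS (−0.87, adjusted p 3.06e-13). Its level was also called lower with (GT)6 SWCNT, at 30.4 CPM (−0.45, adjusted p 1.02e-06). With COOH SWCNT it was called lower at 33.5 CPM (−0.32, adjusted p 0.000339). Means of Mavs and Trim25 were 37.1 and 169.5 CPM in Control against 25.8 and 107.6 CPM in LPS. In (GT)6 SWCNT these means were 27.2 and 130.5 CPM, with no library overlapping Control. In COOH SWCNT they were 35.15 and 153.6 CPM, and there Mavs overlapped Control. For (GT)6 SWCNT 4 of the 20 were higher and 6 lower (3 and 3 without Control replicate 2), and for COOH SWCNT 5 were higher and 2 lower, with no log2 change as large as 1. Ticam1 was at 18.4 CPM in Control and 37.9 CPM in LPS, and it also rose to 36.2 CPM in (GT)6 SWCNT (0.98 ± 0.08, adjusted p 2.07e-12) and 26.3 CPM in COOH SWCNT (0.51 ± 0.08, adjusted p 9.76e-06). The median of the list was 0.01 for LPS, −0.11 for (GT)6 SWCNT and 0.04 for COOH SWCNT. Of the 7 factors and cofactors that act at the Ifnb1 enhancer, 5 were higher and 1 lower in LPS and 4 were higher in each nanotube group. Called shares were 85.7%, 57.1% and 57.1%, against 28.3%, 20.4% and 20.0% of all genes. The medians were 0.24, 0.14 and 0.15. The 4 in each nanotube group, named after their values were seen, were Rela, Nfkb1, Jun and Hmga1, led by Jun in (GT)6 SWCNT (0.56, adjusted p 8.36e-12). Rela and Nfkb1 are NF-kappaB subunits, and Nfkb1 rose by 0.96 in LPS (adjusted p 6.58e-23).

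Downstream of the receptor, 15 signalling genes, Irf9 among them, gave 6 higher and 4 lower in LPS, 66.7% against 28.3% of all genes. For (GT)6 SWCNT 3 were lower (Stat2, Irf9 and Usp18) and for COOH SWCNT 2 (Stat2 and Irf9), named after their values were seen. These are 20.0% and 13.3% of the list, at or below the 20.4% and 20.0% of all genes called, so nothing is read from the counts. Stat2, the partner of Irf9 in the receptor's transcription complex, fell in LPS (−0.90, adjusted p 3.94e-07), in (GT)6 SWCNT (−0.71, adjusted p 2.64e-05) and in COOH SWCNT (−0.36, adjusted p 0.0228). The nanotube counts were 5 of 15 without (GT)6 SWCNT replicate 2 and 1 of 15 without Control replicate 2 or COOH SWCNT replicate 3. Socs3, a feedback inhibitor of cytokine receptors, rose from 6.46 ± 0.799 to 133 ± 8.65 CPM in LPS (SD, n = 3), by 4.37 ± 0.08 on the log2 scale (adjusted p 3.74e-32). Socs1, the inhibitor most tied to interferon receptors, was called in LPS (1.52, adjusted p 0.0268) from 3, 23 and 21 counts against 7, 4 and 5 in Control. The Socs1 libraries overlap, and the call was lost in 4 of the 6 fits without 1 library (without Control replicate 2 or 3 or LPS replicate 2 or 3, adjusted p 0.142, 0.0655, 0.188 and 0.12). Of 6 tested partners of IRF proteins, 3 were higher in LPS (Spi1, Ikzf1 and Myd88), 1 in (GT)6 SWCNT (Spi1; 0 without (GT)6 SWCNT replicate 1 or 2) and 0 in COOH SWCNT.

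Of 16 listed interferon-stimulated genes 15 were tested, and 9 were higher and 1 was lower in LPS, where 28.3% of all genes were called. Gbp5 entered the test only through the LPS libraries, so it had to differ. Without it 8 of 14 were higher and 1 was lower, with a median log2 fold change of 1.09. Cxcl10, a chemokine induced by interferons and by NF-kappaB, was at 5.66, 6.17 and 4.97 CPM in Control and at 171, 183 and 197 CPM in LPS (5.03 ± 0.08, adjusted p 6.69e-34). It was also higher in (GT)6 SWCNT, at 17.5, 18.7 and 15.99 CPM (1.63 ± 0.10, adjusted p 2.11e-15), and in COOH SWCNT, at 11.5, 11.2 and 13.7 CPM (1.11 ± 0.11, adjusted p 6.33e-10). No library of these 4 groups overlapped another group.

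The other stimulated genes with a log2 fold change of at least 1 in LPS were the guanylate-binding proteins Gbp5 (3.83) and Gbp2 (2.34), the ubiquitin-like Isg15 (1.99), Mx2 (1.62), the antiviral enzyme Rsad2 (1.59), Ifit1 (1.47) and the chemokine Ccl5 (1.33). Gbp5 rests on 1 to 3 counts per control library and 19 to 38 per LPS library. The Mx2 call was lost without Control replicate 2 (adjusted p 0.129) or LPS replicate 1 (0.0525). For (GT)6 SWCNT 2 of the 15 were higher, Cxcl10 and Rsad2 (0.40, adjusted p 0.0288), and 1 was without Control replicate 2 or 3 or (GT)6 SWCNT replicate 2 or 3. For COOH SWCNT 1 was higher, Cxcl10, and 2 were without Control replicate 1. These are 13.3% and 6.67% of the list, below the 20.4% and 20.0% of all genes called, so nothing is read from the counts. Across the dye and AAV groups no list had more than 2 called genes. The most were 2 of 20, both lower, for Ifnb1 induction in DiBASC2, where 5.47% of all genes were called. Shares of all genes were 0.252% in Fura-2, 3.08% in Di-2-ANEPEQ and 5.00% in AAV. Nothing is read from these small counts. Of the stimulated genes only Cxcl10 was called in these groups, lower in DiBASC2 (−0.42, adjusted p 0.0499).

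**Figure D5:**
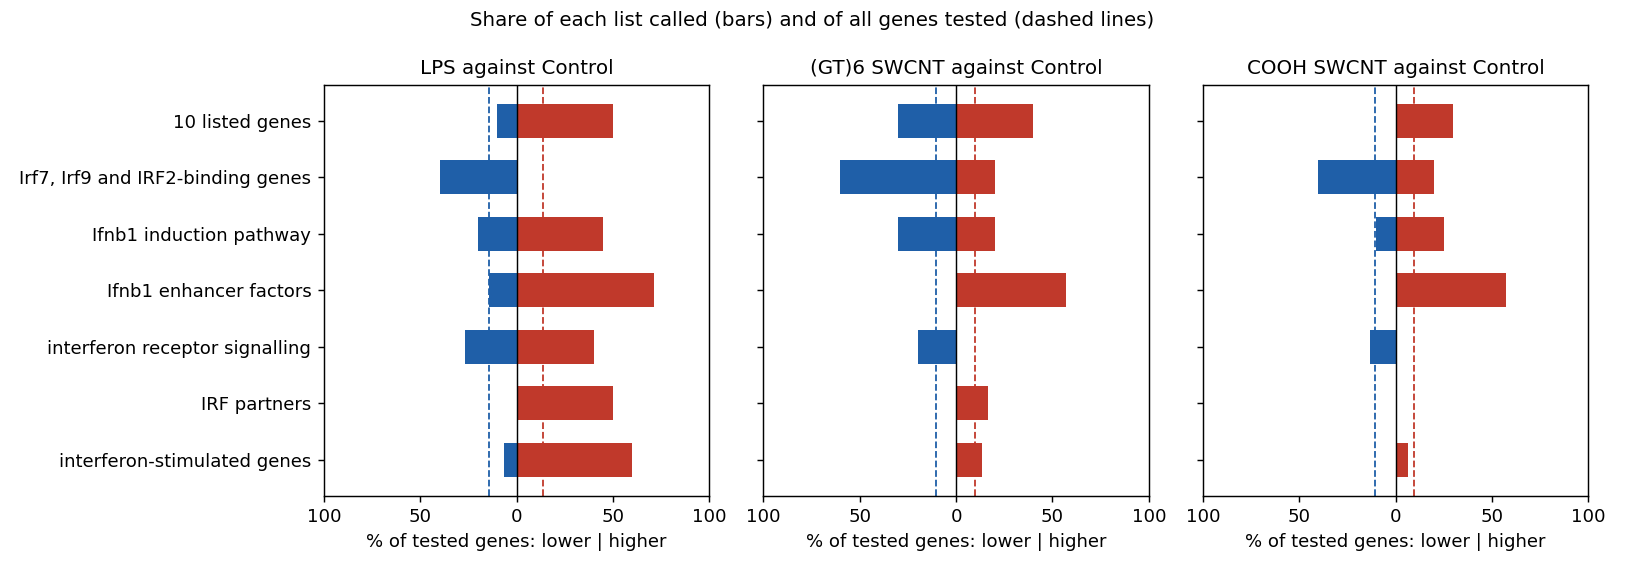
Percent of the tested genes of each list called higher (red, to the right) or lower (blue, to the left) in LPS, (GT)6 SWCNT and COOH SWCNT against Control, with dashed lines at the percent of all tested genes. In LPS 9 of 15 interferon-stimulated genes were higher, Gbp5 and its fixed direction included, and in COOH SWCNT 1 of 15.

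The genes most like each of these in pattern were found as the smallest root mean square difference between centred log2 group means over the 8 groups, among 11085 genes averaging at least 1 CPM. No such genes are named for Ifnb1, since with 0 to 4 counts per group outside LPS its pattern depends on the prior count of 2. For Irf1 they were Skil (0.0895), Map3k8 (0.104) and Ikbke (0.109). Skil was at 27.9 ± 1.88 CPM in Control and 107 ± 8.01 CPM in LPS (SD, n = 3). For Irf2, lower in LPS and (GT)6 SWCNT alike, they were Cbx6 (0.0308), Trerf1 (0.0347) and Rbl2 (0.0363). Cbx6 was at 132 ± 6.41 CPM in Control, 107 ± 4.36 in LPS and 107 ± 0.184 in (GT)6 SWCNT. Irf5 was nearest to Wdr66 (0.0243), Ncoa7 (0.0311) and Sbno2 (0.0367), Ifnar2 to Esrra (0.0378), Atg9a (0.0400) and Parp9 (0.0414), and Tbk1 to Sav1 (0.0210), Ubxn2a (0.0269) and Clint1 (0.0273).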

How the data were processed

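The authors deposited 1 table of raw read counts per gene for the 24 libraries, with whole numbers and versioned Ensembl identifiers. Per the submitters' processing notes, STAR 2.5.4b and build GRCm38.p6 were used. The counting tool, annotation release and strand setting are not given in the sources used here, so genes that overlap others are uncertain. Symbols, exon lengths and overlaps came from GENCODE M21. Groups came from sample titles.

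The tests used edgeR 4.0.16 in R 4.3.3. filterByExpr with default settings left 13116 genes. A single quasi-likelihood model (glmQLFit, TMM factors) estimated 8 group means from the 24 libraries and left 16 residual degrees of freedom. Contrasts were tested two-sided with glmQLFTest. Calls required an adjusted p under 0.05 (Benjamini-Hochberg, over all genes of a contrast). Adjusted p-values are from this test unless another is named. CPM are counts scaled to library sizes times TMM factors, and the SE is the absolute log2 fold change divided by the square root of F. The fit was tested on simulated data. A count floor of 3 was used.

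The 10 genes and all lists were chosen with earlier results of these data known. Named outside the 10 are other IRF and Irf2bp genes, listed genes called with a log2 change of at least 1 in size, and the 3 nearest genes in pattern for genes called in LPS (Ifnb1 excepted, for its low counts). Listed genes with smaller changes, such as Stat2, Tlr4, Rela, Spi1, Ikzf1 and Myd88, were named after their values were seen. Alternatives were leaving out each library, the DESeq2 1.42.0 test, size factors from DESeq2 or upper quartiles, keeping all genes or only those averaging 50 counts, a replicate block, and fitting 2 groups alone. Chi-square per degree of freedom was 2.56 to 21.5 in the 24 replicate pairs, so no library was a copy of another.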

Additional observations from a re-analysis of the deposited data

How the results depend on the processing

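Of 1270 values of the 10 genes under alternatives, 1228 kept their side of the threshold or stayed uncalled, 34 lost a call, 8 gained one and 0 called values changed sign. The number of the 10 genes called in LPS was 6 and ran from 5 (a fit of LPS and Control alone, where Ifnb1 was not tested) to 7, and that in COOH SWCNT was 3 and ran from 2 to 3. In (GT)6 SWCNT it was 7, and from 4 to 6 without 1 library, lowest without (GT)6 SWCNT replicate 1. In DiBASC2 it was 0, but 1 with upper-quartile factors, 1 with a mean of at least 50 counts, and from 0 to 1 without 1 library. It ran from 7 to 8 in (GT)6 SWCNT against LPS and in COOH SWCNT against LPS, Ifnb1 included where it was tested. Between the nanotube groups it ran from 4 to 6, and it stayed 0 in Fura-2, Di-2-ANEPEQ and AAV. The cause of these shifts was not tested. Replicate numbers did not pair the samples (30 correlations of deviations, −0.104 to 0.0696), and with the replicate number as a block the counts were 6, 7 and 3 in LPS, (GT)6 SWCNT and COOH SWCNT and 0 in the dyes and AAV. With a mean of at least 50 counts, 6 interferon-stimulated genes were called in LPS in place of 10, and with upper-quartile factors 5 receptor signalling genes in (GT)6 SWCNT in place of 3. Without a low-count filter, 2 stimulated genes were called in COOH SWCNT in place of 1. Over all genes, Fura-2 had 33 calls with edgeR and 83 with DESeq2. Depth limits Ifnb1, with 44 counts in all, and reads of overlapping genes cannot be told apart.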
